A study of Arabidopsis thaliana with 17 samples.

Results

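Of the 12939 siRNA clusters measured in Arabidopsis flowers, 729 (5.63%) kept more 24 nt siRNA in the clsy quad mutant than in the nrpd1-3 null mutant. They were selected on the levels in these 4 libraries. Both clsy quad libraries had to lie above both nrpd1-3 libraries, the means of log2(RPKM + 1) had to differ by at least 0.2, and the nrpd1-3 mean had to lie under 0.5 RPKM. RPKM is the number of 24 nt reads scaled to the length of the cluster in kilobases and to the reads of the library, and the 1 added to it keeps clusters without reads on the scale. The difference between clsy quad and nrpd1-3 is therefore described here and not tested. The same rule with the genotypes exchanged kept 333 clusters (2.57%).

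The study asked how a motif of Pol IV bears on siRNA production, and its small RNA table holds 12 libraries, 2 per genotype. The clsy quad plants carried clsy1-7, clsy2-1, clsy3-1 and clsy4-1, mutations in all CLSY genes. The nrpd1-3 plants carried a T-DNA insertion in NRPD1 and no transgene. The AAA-YPMF, CYC-AAAA and NRPD1-3xF WT lines were nrpd1-3 plants of the T2 generation with a 3xFLAG-tagged NRPD1 driven by the NRPD1 promoter, in which the CYC residues were alanines, the YPMF residues were alanines, or the motif was intact. Col-0 was the untransformed wild type. The flower label could not be checked against marker genes, since the table holds siRNA clusters only, and in whole flowers fewer cells with siRNAs and fewer siRNAs per cell cannot be told apart.

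Pol IV is a plant RNA polymerase that makes short transcripts of transposons and repeats. RDR2 turns these transcripts into double strands, DCL3 cuts them into 24 nt siRNAs, and the siRNAs guide DNA methylation to matching loci. The CLSY proteins are chromatin remodeller-like partners that bring Pol IV to its loci, and NRPD1 is the largest subunit of Pol IV.

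The members on which the results turn are shown as the plus strand of TAIR10.1, a RefSeq assembly, with CG dinucleotides, the sites of symmetric cytosine methylation, in capitals. The position in a cluster's name was read as its start. A stretch holds the first 300 bases, or the whole cluster where its recovered length was shorter. The member with the largest difference was merged_4_13902361, and the one with the highest Col-0 level was merged_3_15680917. The member merged_4_6017140 had a large difference at a low Col-0 level. The NRPD1-3xF WT line restored little of merged_1_4618911, merged_1_24250883 showed the largest fall of that line against Col-0 on the log2(RPKM + 1) scale, and merged_2_1206413 was high in AAA-YPMF.
merged_4_13902361, chr4:13902361-13902660: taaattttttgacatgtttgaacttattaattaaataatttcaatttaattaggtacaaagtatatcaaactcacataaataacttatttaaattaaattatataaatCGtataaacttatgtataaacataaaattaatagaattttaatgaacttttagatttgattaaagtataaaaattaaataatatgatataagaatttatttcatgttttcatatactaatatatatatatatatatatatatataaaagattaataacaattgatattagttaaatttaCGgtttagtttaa
merged_3_15680917, chr3:15680917-15681216: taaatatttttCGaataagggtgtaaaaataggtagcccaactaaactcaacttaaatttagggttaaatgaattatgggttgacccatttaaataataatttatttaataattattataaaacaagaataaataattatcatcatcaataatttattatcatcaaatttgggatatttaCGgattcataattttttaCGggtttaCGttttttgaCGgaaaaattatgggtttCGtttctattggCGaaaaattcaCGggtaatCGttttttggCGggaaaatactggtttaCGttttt
merged_4_6017140, chr4:6017140-6017231: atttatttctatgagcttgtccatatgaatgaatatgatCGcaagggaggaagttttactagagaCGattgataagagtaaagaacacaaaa
merged_1_4618911, chr1:4618911-4619210: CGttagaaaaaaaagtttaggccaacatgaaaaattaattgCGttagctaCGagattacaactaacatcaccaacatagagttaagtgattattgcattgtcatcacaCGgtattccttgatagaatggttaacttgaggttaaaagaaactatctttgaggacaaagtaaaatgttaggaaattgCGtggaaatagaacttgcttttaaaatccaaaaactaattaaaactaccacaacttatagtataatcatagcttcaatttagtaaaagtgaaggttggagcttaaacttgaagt
merged_1_24250883, chr1:24250883-24251105: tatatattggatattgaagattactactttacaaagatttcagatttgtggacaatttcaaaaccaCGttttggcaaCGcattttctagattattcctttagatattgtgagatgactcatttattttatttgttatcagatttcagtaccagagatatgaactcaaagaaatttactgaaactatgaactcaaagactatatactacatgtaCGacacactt
merged_2_1206413, chr2:1206413-1206712: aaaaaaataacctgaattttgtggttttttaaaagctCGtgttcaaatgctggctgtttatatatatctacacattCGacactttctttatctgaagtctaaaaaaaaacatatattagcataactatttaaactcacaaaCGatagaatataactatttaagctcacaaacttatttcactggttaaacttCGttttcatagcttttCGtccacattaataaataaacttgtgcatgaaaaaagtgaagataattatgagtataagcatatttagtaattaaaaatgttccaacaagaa

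The stretch of merged_4_13902361 was poor in G and C (13.3% GC, 2 CG), and that of merged_3_15680917 held 11 CG at 26.3% GC. All 277 words of 24 bases in the merged_1_4618911 stretch and all 200 in merged_1_24250883 occurred once in the nuclear genome on either strand. A perfect 24 nt read from them thus has a single nuclear origin, and the organelle genomes were not searched. In merged_4_13902361, 220 of 277 words occurred once. No pair of these 6 stretches shared a word.

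None of the 6 stretches started in an annotated gene. The first, merged_4_13902361, began 361 bp from PYL10, which encodes an abscisic acid receptor. The cluster merged_3_15680917 began 94 bp from AT3G06675, a long non-coding RNA gene. Where no length was recovered, as for these and for merged_5_9799932 below, the distance was taken from the start alone. Whether such a cluster reaches the gene is not known. Among the 10 members with the largest difference, merged_4_5438259 alone started inside a gene, in an intron of the protein-coding gene AT4G08545.

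The members' levels in clsy quad were low. Over the 729 members, the median was 0.29 RPKM in clsy quad replicate 1 and 0.35 RPKM in replicate 2, against 0 RPKM in each nrpd1-3 library. The members' own means ranged between 0.15 and 2.82 RPKM in clsy quad, and 448 members (61.5%) lay under 0.5 RPKM in both clsy quad libraries. In nrpd1-3, 325 members (44.6%) were at 0 in both libraries. The difference of the means on the log2(RPKM + 1) scale had a median of 0.33 and a highest value of 1.55. It reached 0.5 at 133 members and 1 at 15, and it lay under 0.3 at 306.

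**Figure D1:**
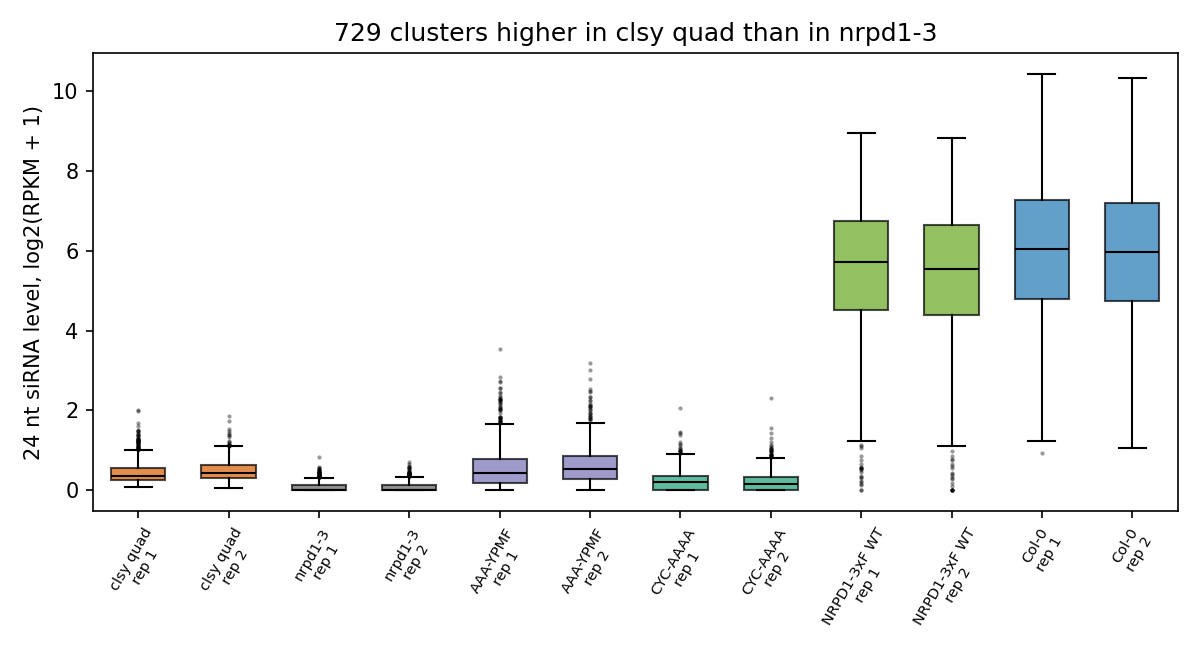
Level of 24 nt siRNA at the members in each of the 12 libraries, as log2(RPKM + 1). Boxes span the quartiles with the median as a line, whiskers reach 1.5 times the box and dots lie beyond. The medians were 0.29 and 0.35 RPKM in clsy quad and 0 RPKM in both nrpd1-3 libraries, and those of the NRPD1-3xF WT line and Col-0 lay between 45.9 and 65.1 RPKM.

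The cluster merged_4_13902361 had 2.95 and 2.30 RPKM in clsy quad, against 0.34 and 0.14 RPKM in nrpd1-3. Its level was 10.6 and 8.14 RPKM in AAA-YPMF, 0.98 and 0.60 RPKM in CYC-AAAA, 356.5 and 325.3 RPKM in the NRPD1-3xF WT line, and 1137 and 1098 RPKM in Col-0. No library of one genotype overlapped those of another, and clsy quad stood above nrpd1-3 and CYC-AAAA and below AAA-YPMF. The cluster merged_3_15680917 had 3.00 and 2.64 RPKM in clsy quad, against 0.38 and 0.35 RPKM in nrpd1-3. It had 5.51 and 4.59 RPKM in AAA-YPMF, 0.57 and 0.35 RPKM in CYC-AAAA, and 1380 and 1292 RPKM in Col-0, the highest Col-0 level of any member. The order of the genotypes was that at merged_4_13902361, save that CYC-AAAA overlapped nrpd1-3. The cluster merged_4_5438259 had 2.19 and 1.88 RPKM in clsy quad, against 0.10 RPKM in both nrpd1-3 libraries.

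Of the other members with a large difference, some shared this order. The cluster merged_2_2865159 had 1.39 and 1.79 RPKM in clsy quad, against 0.07 and 0.15 RPKM in nrpd1-3, with 3.45 and 2.63 RPKM in AAA-YPMF and 0.35 and 0.22 RPKM in CYC-AAAA. The cluster merged_5_9799932 began 783 bp from RECQSIM, which encodes a RecQ-type helicase, and had 1.66 and 1.5 RPKM in clsy quad, against 0.16 and 0.11 RPKM in nrpd1-3. At merged_4_2558980 the levels were 1.79 and 1.60 RPKM in clsy quad, against 0.22 and 0.19 RPKM in nrpd1-3. In each of these 3 clusters both AAA-YPMF libraries lay above both clsy quad libraries, and both CYC-AAAA libraries lay below. At merged_1_24481442 the levels were 1.62 and 1.16 RPKM in clsy quad, against 0.08 and 0.15 RPKM in nrpd1-3, and 745.0 and 649.7 RPKM in Col-0. In AAA-YPMF, merged_1_4618911 had 1.45 and 0.41 RPKM, overlapping clsy quad at 1.79 and 0.80 RPKM, with the lower mean in AAA-YPMF. The cluster merged_4_17637163 also overlapped, with 2.56 and 1.39 RPKM in AAA-YPMF and 2.05 and 1.00 RPKM in clsy quad.

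The member merged_4_6017140 differed from the other 9 with the largest difference. It had 1.29 and 1.03 RPKM in clsy quad, against 0 in both nrpd1-3 libraries, and 14.9 and 16.9 RPKM in Col-0. It is 92 bp long, and the clsy quad values rested on 2 reads in each library. A count of 0 allows up to 3 reads, so that at this depth a difference between the 4 libraries was not detectable. In contrast, merged_4_17637163 had 48 and 29 reads in clsy quad, against 7 and 0 reads in nrpd1-3, and merged_1_4618911 had 27 and 15 reads in clsy quad, against 2 and 0 reads in nrpd1-3.

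**Figure D2:**
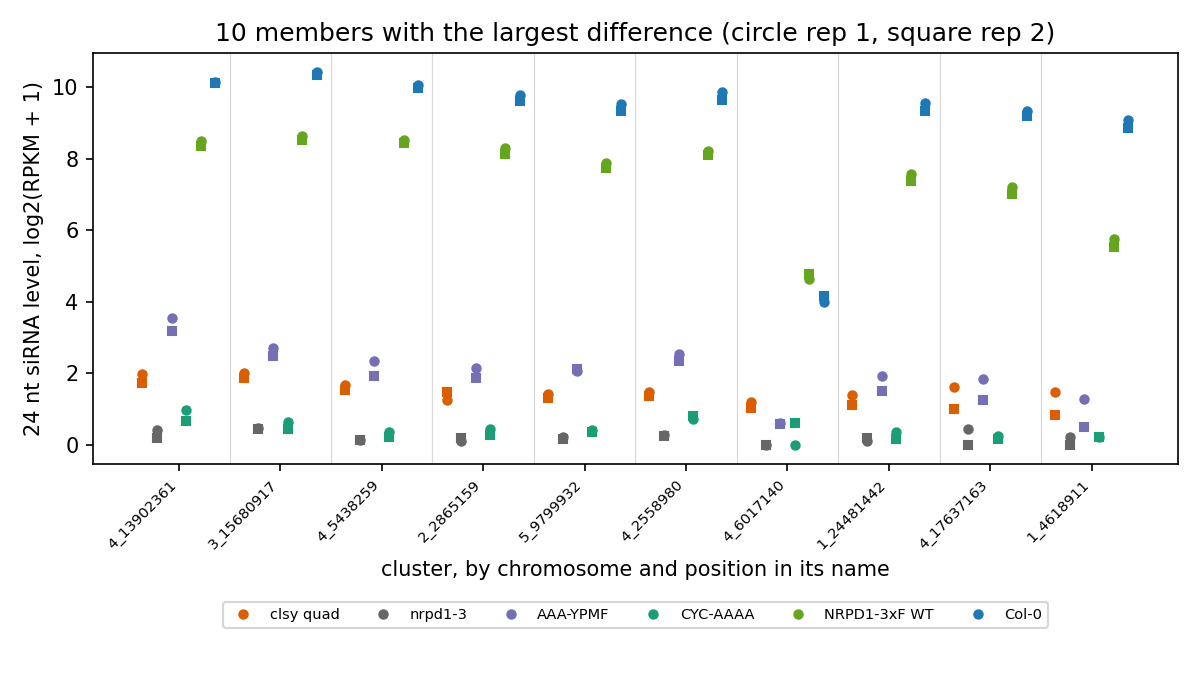
Level of 24 nt siRNA, as log2(RPKM + 1), in each library at the 10 members with the largest difference between clsy quad and nrpd1-3. Circles are replicate 1 and squares replicate 2. At 9 of the 10 members AAA-YPMF reached a mean of 0.93 RPKM or more and Col-0 a mean of at least 498.7 RPKM, while merged_4_6017140 had a Col-0 mean of 15.9 RPKM.

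Reads could be recovered for 594 members (81.5%) from the rounding of the RPKM values, against 62% of all clusters. Recovery needed at least 7 of the 12 libraries above 0. Over both clsy quad libraries together the median member held 6 reads, with a range of 2 to 92, and over both nrpd1-3 libraries the median was 0 and the highest 16. The clsy quad total was at most 5 reads at 248 of these members (41.8%), at least 10 reads at 174 (29.3%) and at least 20 at 36. At 202 of them (34%) a clsy quad library held a single read. Summed over the 594 members, the libraries held 2166 and 3140 reads in clsy quad, against 303 and 426 reads in nrpd1-3. The sums were 3847 and 4707 reads in AAA-YPMF, 1427 and 1364 in CYC-AAAA, 841661 and 698094 in the NRPD1-3xF WT line, and 1319310 and 1251330 in Col-0. For the exchanged rule, the median over both nrpd1-3 libraries was 5 reads, so that the rule kept clusters of a few reads in either direction. These counts carry counting error only, as reads without molecular identifiers are not independent molecules.

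The limit of 0.2 divided clusters that were alike. Just inside it, merged_3_17357679 had 0.18 and 0.22 RPKM in clsy quad, against 0 and 0.09 RPKM in nrpd1-3, a difference of 0.2007. Just outside it, merged_2_10748726 had 0.09 and 0.21 RPKM in clsy quad, against 0 in both nrpd1-3 libraries, a difference of 0.1997. A further 960 clusters met the other conditions and fell short of the limit. A limit of 0.1 kept 1205 clusters and a limit of 0.4 kept 237. With a pseudocount of 0.1 the rule kept 1637 clusters, and without clsy quad replicate 1, when a single clsy quad library had to lie above nrpd1-3, it kept 1601.

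The members were rich in siRNAs in wild type. Their median Col-0 level was 63.6 RPKM, against 11.4 RPKM over all clusters, and they made up 25% and 24.5% of the RPKM summed over all clusters in the Col-0 libraries. Of all members, 372 (51%) lay among the 10% of clusters with the highest Col-0 level, where 28.7% of clusters were members, and 5 lay among the lowest 10%. The share of members in this highest 10% was 37.9% at a difference of 0.2 to 0.3, 76.3% at 0.5 to 1 and 93.3% at 1 or more. A level of at least 0.15 RPKM was needed to meet the rule, and a cluster with more siRNA in Col-0 can reach it at a smaller percent of its Col-0 level.

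**Figure D3:**
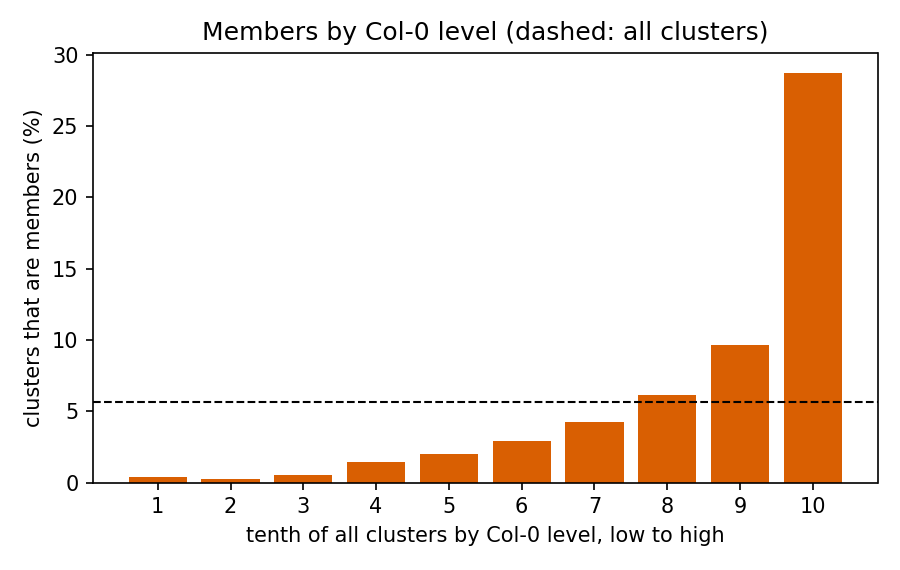
Share of clusters that are members, in percent, in each of 10 equal parts of all clusters ordered by the Col-0 mean, low to high. Bars are the parts and the dashed line marks 5.63%, the share over all clusters. The share was 28.7% in the highest part and 0.386% in the lowest.

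Relative to wild type, the siRNAs that remained in clsy quad were few. The median member kept 0.499% of its Col-0 level in clsy quad, against 0.0181% in nrpd1-3. It stood at 0.515% in AAA-YPMF, 0.148% in CYC-AAAA and 98.3% in the NRPD1-3xF WT line. Over all clusters these 3 medians were higher, at 1.585%, 0.597% and 131.3%, and the part of the Col-0 level in this was not tested. Among the highest 10% of clusters by Col-0 level they were 0.371%, 0.0750% and 59.5% for members. For the other clusters there they were 0.431%, 0.141% and 86.6%. In the next 10% they were 0.703%, 0.295% and 111.3% for members, against 0.734%, 0.309% and 106.9%. In clsy quad, 72.3% of members lay under 1% of Col-0, and 7 lay over 10%. Of the 30 members with the highest Col-0 level, between 521.9 and 1336 RPKM, clsy quad kept between 0.0805% and 0.281%. In nrpd1-3 these 30 members lay between 0 and 0.0438% of Col-0, with a median of 0.0237%, against a clsy quad median of 0.204%. Replicate 1 lay above replicate 2 at 24 of the 30 in clsy quad, at 23 in nrpd1-3, at 23 in AAA-YPMF, at 28 in CYC-AAAA, at 29 in the NRPD1-3xF WT line and at all 30 in Col-0. In every genotype replicate 1 was thus the higher at most of these members, and the part of this in the result was not tested.

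The members with the highest percent of Col-0 had little siRNA in wild type. The mitochondrial cluster merged_Mt_145665 had 0.37 and 0.41 RPKM in clsy quad, against 0.08 and 0.29 RPKM in nrpd1-3, and 0.92 and 1.25 RPKM in Col-0. It was the only member outside the nuclear chromosomes. The cluster merged_3_1959266 had 0.21 and 0.59 RPKM in clsy quad, against 0 and 0.20 RPKM in nrpd1-3, and 1.34 and 1.10 RPKM in Col-0, and it overlapped the transcribed pseudogene AT3G06433. At merged_4_5564404, clsy quad had 0.28 and 0.22 RPKM and both nrpd1-3 libraries were at 0, against 1.39 and 1.34 RPKM in Col-0. In clsy quad, the 5 members with the lowest Col-0 level kept between 18.3% and 35.9% of it.

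**Figure D4:**
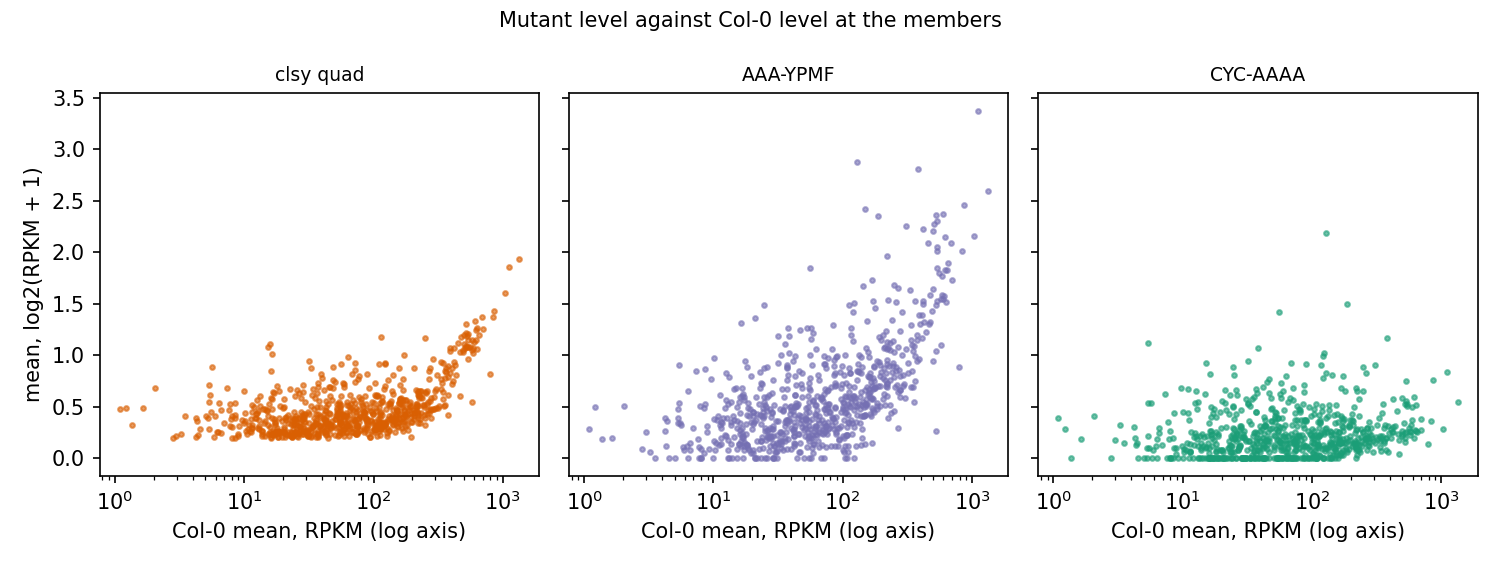
Mean level of each member in clsy quad, AAA-YPMF and CYC-AAAA, as log2(RPKM + 1), against its Col-0 mean in RPKM on a log axis. Each point is a member. The Spearman coefficient with the Col-0 level was 0.464 for clsy quad, and the highest means were 2.82 RPKM in clsy quad, 9.36 RPKM in AAA-YPMF and 3.54 RPKM in CYC-AAAA.

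Over the 729 members the Spearman coefficient between the levels was 0.489 for AAA-YPMF with clsy quad and 0.399 for CYC-AAAA with clsy quad, against 0.498 and 0.452 over all 12939 clusters. These points share cluster length and library depth, and the coefficients are a description.

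The motif variants were compared with the NRPD1-3xF WT line to ask how far the members depend on an intact motif. In AAA-YPMF, 709 of 729 members fell (97.3%), against 97.6% of all clusters, with a median log2 fold change of -5.07 (limma, adjusted p under 0.01 and at least 1 on the log2 scale). In CYC-AAAA, 709 members fell as well (97.3%), against 97.6% of all clusters, with a median log2 fold change of -5.44. Over all clusters the medians were -3.50 and -3.63. The 1 added to RPKM ties the size of a fall to the level in the NRPD1-3xF WT line. The median of that level was 48.5 RPKM at the members and 12.9 RPKM over all clusters, and its part in the gap was not tested. With a pseudocount of 0.1 the medians were -6.55 and -7.88 over the members, against -5.48 and -6.06 over all clusters. Both comparisons used the same NRPD1-3xF WT libraries. The same 20 members were not called in both variants, and at 18 of these the NRPD1-3xF WT line itself lay under 10% of Col-0. The highest NRPD1-3xF WT mean among the 20 was 0.945 RPKM. A fall of 1 on the log2(RPKM + 1) scale was thus out of reach at each of them, and the equal counts do not compare the variants. Set against Col-0, 727 members were lower in AAA-YPMF (99.7%), against 97.3% of all clusters, and 727 in CYC-AAAA (99.7%), against 97.8%.

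AAA-YPMF kept more siRNA than clsy quad at 433 members (59.4%), by the means, against 81.6% of all clusters. CYC-AAAA did so at 91 members (12.5%), against 57.3% of all clusters. The rule required a high clsy quad level, so that these shares are a description. Both libraries reached 1 RPKM at 82 members (11.2%) in AAA-YPMF and at 6 (0.823%) in CYC-AAAA. Over all clusters these shares were 3.04% and 1.11%. As a percent of Col-0 the members were the lower in AAA-YPMF, with a median of 0.515%, against 1.585% over all clusters. At a like Col-0 level the order varied. In the highest of the 10 parts by Col-0 level the medians were 0.371% for members and 0.431% for other clusters. In part 6, counted from the lowest, they were 1.942% and 1.541%.

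The 2 variants were then set against each other, in libraries that the rule did not use. Both AAA-YPMF libraries lay above both CYC-AAAA libraries at 397 members (54.5%), against 43% of all clusters, and both lay below at 23 (3.16%), against 3.8%. In the test on these 4 libraries alone, limma called 0 members and 0 of the 12939 clusters higher in AAA-YPMF (0%), although 250 members (34.3%) had an unadjusted p under 0.05 in this direction, against 2516 of all clusters (19.4%). A rise of 1 on the log2(RPKM + 1) scale needs a mean of at least 1 RPKM in AAA-YPMF. The upper quartile of these means was 0.77 RPKM over the members and 0.355 RPKM over all clusters. Most clusters could therefore not be called, whatever their p-value. The smallest limma adjusted p of any member was 0.0869.

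At merged_4_13902361 the log2 fold change of AAA-YPMF over CYC-AAAA was 2.53 ± 0.19 (SE, n = 2 each, limma adjusted p = 0.0935). The cluster merged_4_3766781 had 5.68 and 7.04 RPKM in AAA-YPMF, against 3.15 and 3.93 RPKM in CYC-AAAA. It had the highest CYC-AAAA level of any member, while clsy quad stood at 0.58 and 0.30 RPKM and nrpd1-3 at 0.13 and 0.21 RPKM. The groups did not overlap, and the log2 fold change of 0.70 ± 0.16 (SE, n = 2 each) had a limma adjusted p of 0.204. The cluster merged_2_1206413 had 6.11 and 5.92 RPKM in AAA-YPMF, against 1.32 and 1.17 RPKM in CYC-AAAA, on 80 and 81 reads against 16 and 15 reads. Its clsy quad values were 0.38 and 0.68 RPKM, on 4 and 9 reads. The cluster merged_2_9328668 ran the other way, with 0.95 and 0.80 RPKM in AAA-YPMF, against 1.02 and 1.33 RPKM in CYC-AAAA. Its log2 fold change was -0.21 ± 0.11 (SE, n = 2 each, limma adjusted p = 0.403).

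The NRPD1-3xF WT line was compared with Col-0 to ask how far the transgene restored the members. It was lower than Col-0 at 205 members (28.1%), against 7.76% of all clusters, and higher at 8 (1.1%), against 5.46%. The median log2 fold change was -0.03 over the members and 0.35 over all clusters. Both libraries of the line lay below both Col-0 libraries at 340 members (46.6%), against 18.5% of all clusters, and above at 296 (40.6%), against 66.6%. Without replicate 2 of the line, the median log2 fold change was 0.004 over the members and 0.42 over all clusters.

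The members that were lower lay mostly among those rich in siRNAs in Col-0. Among the 10% of clusters with the highest Col-0 level, 160 of 372 members were lower in the NRPD1-3xF WT line (43%), against 241 of 922 other clusters (26.1%). Within these the median Col-0 level was 149.4 RPKM for members, against 90.9 RPKM for the others, and the part of the Col-0 level in this gap was not tested. In the next 10% the shares were 13.6% of members and 14.5% of other clusters. In part 8 of the 10 parts, counted from the lowest, they were 17.7% and 8.97%. They were 10.9% and 6.86% in part 7 and 15.4% and 3.9% in part 6, where 6 members were lower in each. In part 5 they were 4% and 4.26%. By the size of the difference between clsy quad and nrpd1-3, the share lower in the line was 19% at 0.2 to 0.3, 24.8% at 0.3 to 0.5, 51.7% at 0.5 to 1, and 93.3% (14 of 15) at 1 or more. The median Col-0 level of these groups rose in the same order, at 42.6, 64.8, 198.3 and 632.9 RPKM. Its part in the rising share was not tested.

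**Figure D5:**
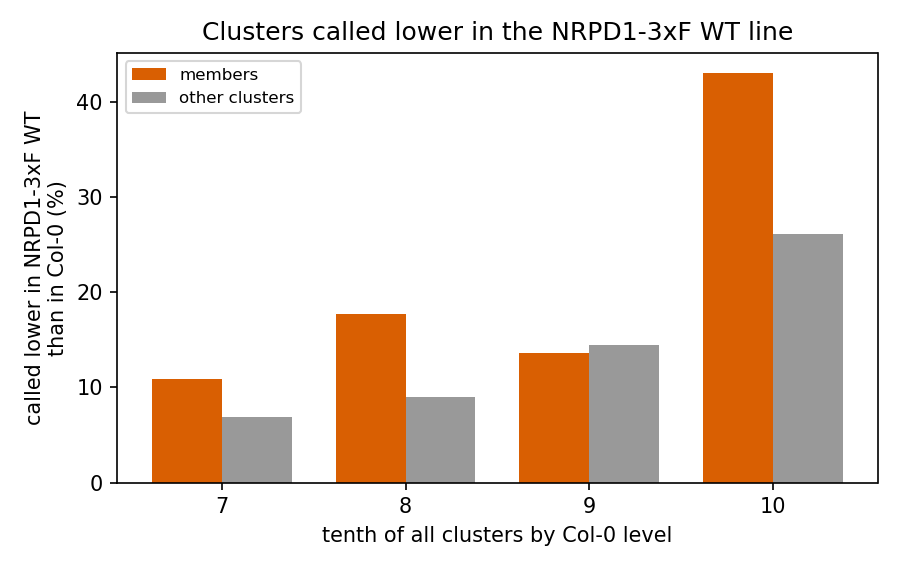
Share of clusters, in percent, called lower in the NRPD1-3xF WT line than in Col-0 by limma, for members and other clusters, in the 4 highest of 10 equal parts by Col-0 level. Bars show 43% of members and 26.1% of other clusters in the highest part.

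The cluster merged_1_24250883, 223 bp long, had 0.15 and 0 RPKM in the NRPD1-3xF WT line, against 574.1 and 476.5 RPKM in Col-0. The log2 fold change was -8.93 ± 0.13 (SE, n = 2 each, limma adjusted p = 2.61e-19). The pseudocount ties the size of such a fall to the Col-0 level, and merged_5_1108585, listed at 0 in both libraries of the line, had 37.4 and 29.2 RPKM in Col-0. In clsy quad, merged_1_24250883 had 1.59 and 0.64 RPKM, against 0 in both nrpd1-3 libraries, so that clsy quad lay above the complemented line. This occurred, with both clsy quad libraries above both NRPD1-3xF WT libraries, at 4 members (0.549%), against 0.263% of all clusters, a description only, since the rule required a high clsy quad level. The line lay under 10% of Col-0 at 39 members (5.35%), against 2.31% of all clusters, and under 50% at 207 (28.4%), against 8.14%.

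The next 4 members by the fall in the line on this scale lay under 0.5 RPKM in every library of the mutants and the motif variants. The cluster merged_5_21155496 had 0.28 and 0.08 RPKM in the NRPD1-3xF WT line, against 150.3 and 148.5 RPKM in Col-0, and 0.25 and 0.41 RPKM in clsy quad, against 0 in both nrpd1-3 libraries. The cluster merged_1_3919979 had 0.26 and 0 RPKM in the line, against 142.1 and 133.9 RPKM in Col-0. The cluster merged_3_23130733 had 0.11 and 0 RPKM in the line, against 111.7 and 133.4 RPKM in Col-0. The cluster merged_1_10880730 had 0.09 and 0 RPKM in the line, against 105.5 and 110.6 RPKM in Col-0. At these 4 clusters the log2 fold changes of the line over Col-0 lay between -7.00 and -6.71 (limma, adjusted p at most 5.05e-18), and clsy quad overlapped or exceeded the complemented line.

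The cluster merged_1_4618911 had 53.0 and 45.4 RPKM in the NRPD1-3xF WT line, against 538.6 and 458.9 RPKM in Col-0, a log2 fold change of -3.32 ± 0.10 (SE, n = 2 each, limma adjusted p = 7.82e-16). In the other direction, merged_1_13872052 had 71.5 and 66.7 RPKM in the line, against 18.3 and 19.3 RPKM in Col-0, the largest rise of any member on the log2(RPKM + 1) scale (1.82 ± 0.11, SE, n = 2 each, limma adjusted p = 7.65e-11). At merged_4_604352, which had 1 read in each clsy quad library and 0 in each nrpd1-3 library, the line had 12.7 and 9.38 RPKM, against 2.57 and 3.01 RPKM in Col-0. Its mean in the line was 395.9% of Col-0, the highest percent of any member, against 367.8% at merged_1_13872052.

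The members lay on all nuclear chromosomes. Chromosome 1 held 190 of them (6.67% of its clusters), chromosome 2 held 150 (5.77%), chromosome 3 held 116 (4.52%), chromosome 4 held 118 (5.65%) and chromosome 5 held 154 (5.49%). Fewer lay near centromeres: 241 members (33.1%) lay within 3 Mb of an approximate centromere centre, against 55.9% of all clusters. The median distance to the centre was 4.19 Mb for members and 2.60 Mb for all clusters. Within 5 Mb the counts were 406 members (55.7%), against 72.5% of all clusters. Of the 333 clusters kept by the exchanged rule, 31.8% lay within 3 Mb and 58% within 5 Mb, so that this position was not particular to the members. The nearest neighbour of a member was another member in 9.62% of cases, against 5.46% over all clusters.

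By the RefSeq annotation, 618 of the 728 nuclear members (84.9%) started outside any gene, against 75% of all nuclear clusters. Another 62 (8.52%) started in an exon of a protein-coding gene and 28 (3.85%) in an intron, against 6.58% and 3.86% of all. Pseudogenes held 15 starts (2.06%), against 13.3% of all. Of the nuclear clusters kept by the exchanged rule, 86.1% started outside genes and 1.2% in pseudogenes, close to the members' shares. Among the highest 10% by Col-0 level, the share outside genes was 84.9% of members, against 82.2% of other clusters. The annotation used here has no transposon features.

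The members with a recovered length were shorter and held more single-copy sequence than all clusters with a recovered length. Their median length was 517 bp, against 709 bp over the 8011 recovered nuclear clusters. Of these members 124 of 593 (20.9%) consisted only of 24-base words found once in the nuclear genome, against 11.7%. In 8 (1.35%) less than 10% of the words occurred once, against 3.57% over all. The clusters of the exchanged rule had a median length of 431 bp, and 22.9% of them consisted only of single-copy words, so that neither trait was particular to the members. The median GC content of the members was 30.9%, against 32.1% over all. Among the highest 10% by Col-0 level, the share with only single-copy words was 26% of members, against 26.8% of the others. Lengths above 1945 bp could not be recovered, and the longest clusters are missing from these values. Recovery also needed at least 7 of the 12 libraries above 0, and the rule itself put both clsy quad libraries of a member above 0. It reached 81.5% of members and 62% of all clusters, so that unlike subsets stand side by side and the values are a description.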

How the data were processed

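Small RNAs of 24 nt were measured in 12 libraries, 2 for each of 6 genotypes. The authors trimmed adapters with cutadapt 1.18, mapped the reads to TAIR10, counted them with HOMER 4.10 and deposited RPKM values with 2 decimals, without a log transform. The 12 columns were matched to samples by name, 0 value columns were unused, and the 5 libraries of a CLSY3 experiment were not used here. The members, lists and tests were chosen with earlier results of these data known. Named clusters were the 10 members with the largest difference, the 5 with the highest and lowest Col-0 mean, the 5 highest in AAA-YPMF and in CYC-AAAA, and 3 on each side of the 0.2 limit. The members named for their fall or rise in the NRPD1-3xF WT line against Col-0 were chosen after their values were seen.

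Values were taken to log2(RPKM + 1) and fitted with limma 3.58.1 in R 4.3.3 on the 4 libraries compared (lmFit, eBayes with a trend). P-values were adjusted over 12939 clusters by the Benjamini-Hochberg method. They rest on the spread between the 2 libraries of a genotype, pooled over the genotypes compared. The fit draws this spread towards a trend over all 12939 clusters, and the SE values use the spread so moderated. RPKM depends on depth and cluster length, which differ between libraries and clusters. Reads and lengths were recovered as the smallest length between 50 and 1945 bp at which all values of a cluster were whole reads within rounding (at most 0.3 reads of error), given the library totals of the study's supplement. A cluster also needed at least 7 of the 12 libraries above 0, as 10316 clusters had. The search solved 8024 clusters (62%), and 13 when 24 nt totals were used. Read as starts, the positions in the names gave 0 overlaps between recovered neighbours, against 830 as ends and 345 as centres. The names may count bases from 0 or 1, so that positions may be off by 1. Genes came from RefSeq TAIR10.1, whose nuclear chromosomes are those of TAIR10. Approximate centromere centres were set at 15, 4, 14, 4 and 12 Mb of chromosomes 1 to 5. Tables and plots were made in Python 3.11.15 with pandas 2.3.3 and matplotlib 3.10.9.

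The alternatives were a pseudocount of 0.1, a filter at a mean of 1 RPKM, the replicate number as a block, 1 fit over 12 libraries, a limit of 0.05 on the adjusted p, eBayes fitted with no trend, Col-0 as the reference, each replicate left out, and other limits of the rule.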

Additional observations from a re-analysis of the deposited data

How the results depend on the processing

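The number of clusters kept by the rule was 1205 at a difference of at least 0.1, 237 at 0.4, 1637 with a pseudocount of 0.1 and 333 with the genotypes exchanged, and between 887 and 1601 with a clsy quad or nrpd1-3 replicate left out. Leaving out a replicate relaxes the rule by its construction. Members within 5 Mb of a centromere centre numbered 406. With a replicate left out, the median log2 fold change of AAA-YPMF over CYC-AAAA was 0.25 to 0.32 over the members. Over all clusters it was 0.08 to 0.13. When clusters averaging under 1 RPKM were left out, 35 of 60 members (58.3%) were higher in AAA-YPMF, against 45 of 322 clusters (14%). In the fit over all 12 libraries 46 members (6.31%) were higher, against 56 of all clusters (0.433%). Members can pass that filter through AAA-YPMF alone, and that fit draws its spread partly from the libraries used for the rule, so that neither count is evidence of a difference. Members lower than in the NRPD1-3xF WT line numbered between 582 and 708 in AAA-YPMF and between 576 and 709 in CYC-AAAA with a replicate left out. In the NRPD1-3xF WT line against Col-0, between 201 and 209 members were lower and between 7 and 18 were higher with a replicate left out, the 18 without replicate 2 of the line. In the 4 comparisons tested, the differences between replicates 1 and 2 did not correlate across clusters (r = -0.000968, -0.000222, -0.0154 and -0.00616). This leaves shifts common to most clusters aside, as replicate 1 was the higher at 596 members in the NRPD1-3xF WT line and at 549 in Col-0. With the replicate block, 709 members were lower in AAA-YPMF, 709 in CYC-AAAA, 0 higher in AAA-YPMF than in CYC-AAAA, 205 lower and 8 higher in the line than in Col-0, as without it. Of 63 alternative values, 54 stayed within 1.5 times. With 2 libraries a genotype and a median of 6 reads behind a member in clsy quad, depth limits every statement on single members.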
